A study of Mus musculus with 14 samples.

Results

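Immediate early genes are switched on within minutes of a stimulus, and 10 of them were followed here in mouse quadriceps with and without the histone deacetylase HDAC3: Fos, Fosb, Jun, Junb, Jund, Egr1, Egr3, Ier2, Nr4a1 and Nr4a3. They were chosen by name, and each was found as 1 row among the 24354 gene symbols of the expression table. The knockout group was labelled HDAC3 Knock-out and the wild-type group HDAC3 Wild-type, with 3 RNA-seq libraries each. All 6 libraries came from quadriceps of male C57BL/6 mice aged 4 months on normal chow and a normal light/dark schedule, at rest and without treatment, at zeitgeber time (ZT) 10, that is 10 hours after lights on. The labels give neither the driver of the deletion nor the cells it reached, nor whether a library is 1 animal or a pool, so p-values measure a spread between libraries that may be technical.

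These genes need no new protein to be transcribed: kinases downstream of growth factors, calcium or cAMP act on factors such as SRF, its ternary complex partners and CREB that already sit at the promoter. The products are mostly transcription factors, and their mRNAs decay fast. In skeletal muscle they are known to respond to contraction, injury and adrenergic signals. HDAC3 removes acetyl groups from histones as the enzyme of the NCoR and SMRT corepressors.

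The stretch upstream of the start is shown for the 4 members on which the results turn, as letters of the reference genome from RefSeq (GRCm38.p6), 250 bases ending at the base before the start listed there. Promoters of 7 of the 10 members were matched by symbol; Egr1, Egr3 and Ier2 are named only. Capitals mark TGACG, the core letters of the cAMP response element that CREB and ATF proteins bind, or CGTCA, the same letters on the other strand.

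Fos, chr12:85473640-85473889, plus strand: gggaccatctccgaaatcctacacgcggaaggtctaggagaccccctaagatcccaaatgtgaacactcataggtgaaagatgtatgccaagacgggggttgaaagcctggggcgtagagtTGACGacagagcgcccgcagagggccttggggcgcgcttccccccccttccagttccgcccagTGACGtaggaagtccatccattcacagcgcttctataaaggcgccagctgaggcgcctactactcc

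Jun, chr4:95052223-95052472, minus strand: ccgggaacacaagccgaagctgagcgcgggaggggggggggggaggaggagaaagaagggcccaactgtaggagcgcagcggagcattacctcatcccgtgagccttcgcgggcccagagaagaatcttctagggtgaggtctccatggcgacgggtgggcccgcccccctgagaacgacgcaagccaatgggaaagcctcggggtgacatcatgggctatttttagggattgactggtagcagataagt

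Nr4a1, chr15:101266596-101266845, plus strand: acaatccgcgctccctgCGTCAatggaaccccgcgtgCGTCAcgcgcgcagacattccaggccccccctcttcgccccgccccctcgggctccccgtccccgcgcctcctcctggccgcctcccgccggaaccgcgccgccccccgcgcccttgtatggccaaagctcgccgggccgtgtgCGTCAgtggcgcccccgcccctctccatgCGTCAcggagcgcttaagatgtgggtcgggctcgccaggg

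Nr4a3, chr4:48045055-48045304, plus strand: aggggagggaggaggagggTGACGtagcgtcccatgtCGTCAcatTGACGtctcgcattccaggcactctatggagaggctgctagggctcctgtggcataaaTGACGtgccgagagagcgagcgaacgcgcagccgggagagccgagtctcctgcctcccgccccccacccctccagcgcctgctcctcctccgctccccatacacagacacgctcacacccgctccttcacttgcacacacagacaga

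TGACG was matched 2 times in the Fos stretch, 4 times each in Nr4a1 and Nr4a3 and 0 times in Jun. Of the other 3 promoters, those of Fosb and Junb held 1 match each and that of Jund held 0, so 5 of 7 members had it, against 17.8% of 32851 promoter stretches of the same length. The letters TGANTCA, 1 form of the AP-1 site that FOS and JUN proteins bind as pairs, were in 0 of the 7 and in 6.75% of all stretches. The EGR site GCGNGGGCG was matched 1 time each in Fosb and Nr4a1, against 4.70% of all stretches, and the CArG box of SRF in 0 of the 7, against 1.47%. Each motif was searched on both strands, in 1 form and in these 250 bases only. Sites further upstream and variant forms were not searched, so 0 matches do not show that a site is absent. None of these matches is a measured binding site.

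Expression levels are in FPKM, which divide a gene's fragments by its length and by the size of the library. Hdac3 was examined first. It stood at 5.51, 6.29 and 8.16 FPKM in the knockout, against 33.3, 31.0 and 23.7 FPKM in the wild type (limma adjusted p = 0.00487). Summed FPKM of 6 fibre markers (Acta1, Ckm, Mylpf, Tnnt3, Myh4 and Pvalb) lay between 56785 and 71119 in the knockout and between 58403 and 66365 in the wild type. Relative to wild-type replicate 1, knockout replicates 1, 2 and 3 had depths of 0.660, 0.832 and 0.674, and wild-type replicates 2 and 3 had depths of 0.831 and 1.02. These factors came from genes under 0.3 FPKM, whose values move in steps of 1 fragment. With them, the values of 9 of the 10 members fell on whole multiples of 1 step within 0.02, and those multiples are given below as fragment numbers, on the reading that the step is 1 fragment; Egr3 did not. The test of difference was limma on log2(FPKM + 1) over the 9204 genes for which the authors' deposited table holds a p-value under 1, called at an adjusted p under 0.05. The q-value of that table, called under 0.05, is given beside it.

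The members differed from one another between genotypes. Fos had the higher level in every knockout library, called by the deposited q-value and not by limma, whereas Jun, Jund and Nr4a1 stood at near-equal means in both genotypes and Nr4a3 varied more within each genotype than between them. Of the 10 members, 5 were in the fit (Fos, Jun, Jund, Nr4a1 and Nr4a3). Limma called 0 of these 5, against 4.72% of all genes fitted (3.04% higher and 1.67% lower in the knockout), and 1 had an unadjusted p under 0.05, against 21.5% of all genes fitted. By its q-value, the authors' deposited table called 1 of the 5, against 10.8% of all genes fitted. Both rules together called 0 of the 5, against 4.27% of all genes fitted. The genotypes did not overlap in 1 of the 5, against 28.0% of all genes fitted; in each of these cases the 1 gene was Fos. Jun was the median member on limma's scale, with a log2 fold change of 0.01, which is also the median over all 9204 genes.

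**Figure D1:**
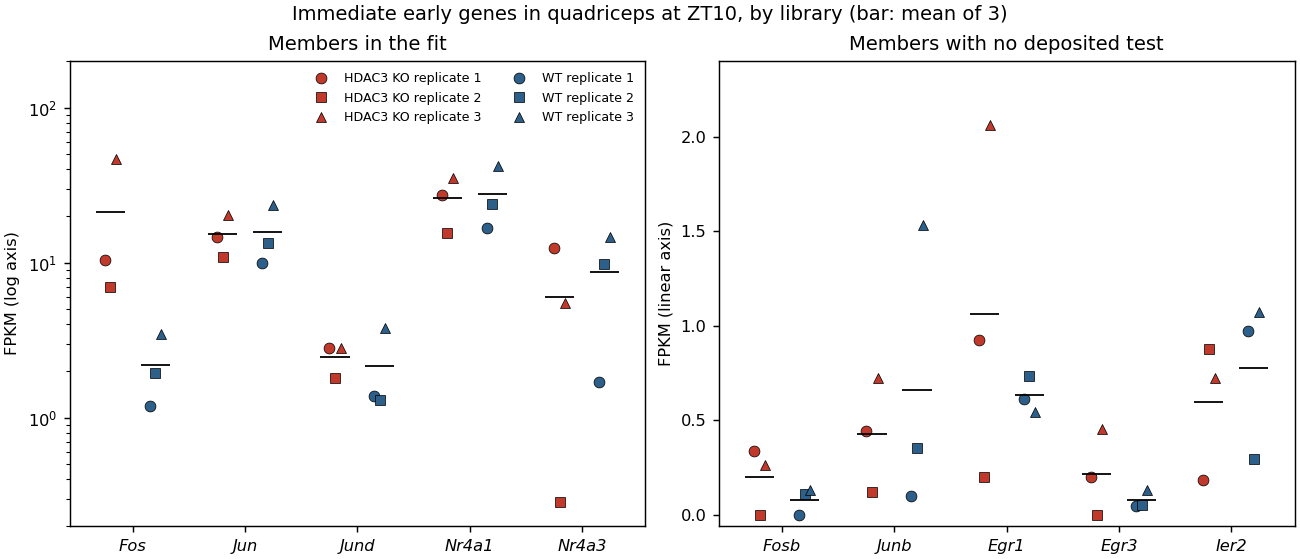
FPKM of the 10 members in each library, knockout to the left of wild type, with a bar at the mean of 3 libraries; the left panel has a log axis and the right a linear one. Fos is the only member whose 3 knockout libraries, at 7.01 to 46.5 FPKM, all lie above its 3 wild-type libraries, at 1.18 to 3.48 FPKM.

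Fos encodes the AP-1 subunit c-FOS, which binds DNA only as a partner of a JUN protein. Its level was 10.4, 7.01 and 46.5 FPKM in the knockout, against 1.18, 1.93 and 3.48 FPKM in the wild type. The lowest knockout library thus lay 2.02 times above the highest wild-type library, and knockout replicate 3 stood apart from the other 2 knockout libraries. In fragments these are 81, 69 and 371 in the knockout, against 14, 19 and 42 in the wild type. The ratio of means was 9.69 (log2 ratio 3.28 ± 0.96, SE), and without knockout replicate 3 it was 3.95. Limma gave a log2 fold change of 2.41 ± 0.62 with an adjusted p of 0.0762, which missed the threshold. The authors' deposited table gave a q-value of 0.00119, the same as for Atf3, whose genotypes overlapped. An exact two-sided permutation test over the 6 libraries gave p = 0.10, the smallest that 3 against 3 libraries allow. Any gene without overlap gets this p, as 28.0% of all genes fitted do. The fold change was positive in all 14 alternative settings, and limma called Fos in 0 of them, with adjusted p between 0.0579 and 0.373.

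The JUN genes, which encode its partners, overlapped between genotypes. Jun, which encodes c-JUN, stood at 14.6, 10.9 and 20.2 FPKM in the knockout, against 9.99, 13.4 and 23.7 FPKM in the wild type. The genotypes overlapped over nearly their whole ranges, with means of 15.3 ± 4.68 and 15.7 ± 7.11 FPKM (SD, n = 3 each). Jund, the JUN family member known for steady rather than inducible expression, stood at 2.80, 1.79 and 2.83 FPKM in the knockout, against 1.37, 1.29 and 3.80 FPKM in the wild type. Limma's log2 fold change was 0.01 ± 0.32 for Jun (adjusted p = 0.996) and 0.21 ± 0.30 for Jund (adjusted p = 0.736). The ratio of means of Jund, 1.15, was 1.86 without wild-type replicate 3.

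The NR4A genes encode orphan nuclear receptors that act without a known hormone and are induced in muscle by exercise and adrenergic signals. Nr4a1 was the most abundant member, at 27.4, 15.6 and 35.0 FPKM in the knockout, against 16.9, 24.1 and 42.2 FPKM in the wild type. Its means were 26.0 ± 9.77 FPKM in the knockout and 27.7 ± 13.1 FPKM in the wild type (SD, n = 3 each), and limma gave a log2 fold change of -0.06 ± 0.37 (adjusted p = 0.946). Nr4a3 stood at 12.4, 0.285 and 5.50 FPKM in the knockout, against 1.69, 9.78 and 14.7 FPKM in the wild type. Knockout replicate 2 held 8 fragments of it and knockout replicate 1 held 275, so the spread within the knockout was 43.3-fold, against 8.68-fold within the wild type. Limma gave a log2 fold change of -0.68 ± 0.93 for Nr4a3 (adjusted p = 0.725), while the authors' deposited table gave a q-value of 0.0579. The ratio of its means, 0.694, was 0.332 without knockout replicate 1 and 1.02 without knockout replicate 2.

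The other 5 members were low and had no test in the deposited table. Egr1, a zinc finger factor induced through SRF, stood at 0.926, 0.2004 and 2.06 FPKM in the knockout, against 0.611, 0.735 and 0.544 FPKM in the wild type. That is 11, 3 and 25 fragments in the knockout and 11, 11 and 10 in the wild type: the 3 wild-type libraries were close together, and the knockout libraries lay on both sides of them. The ratio of its means was 1.69, and 0.893 without knockout replicate 3. Egr3, a relative of Egr1 needed for muscle spindles, stood at 0.201, 0 and 0.451 FPKM in the knockout, against 0.0443, 0.0533 and 0.130 FPKM in the wild type. Knockout replicate 3 was highest and knockout replicate 2 lowest in both EGR genes.

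Fosb, the AP-1 subunit closest to Fos, held 5, 0 and 4 fragments in the knockout, against 0, 2 and 3 in the wild type. Junb, an inducible JUN family member, held 3, 1 and 5 fragments in the knockout, against 1, 3 and 16 in the wild type. Ier2, which encodes a nuclear protein of the early growth response, held 1, 6 and 4 fragments in the knockout, against 8, 2 and 9 in the wild type. Of these 3 genes, only Junb in wild-type replicate 3, at 1.53 FPKM, and Ier2 in the same library, at 1.07 FPKM, passed 1 FPKM in any library. No difference between genotypes was detectable in these genes at this depth. In a fit of all 24354 genes the adjusted p of the 5 low members lay between 0.893 and 1.

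Within a genotype the members mostly ranked the same libraries highest and lowest. Knockout replicate 2 was the lowest knockout library in 9 of 10 members, the exception being Ier2, and wild-type replicate 3 was the highest wild-type library in 9 of 10, the exception being Egr1. Over all 9204 genes fitted, the same libraries held these places in 33.5% of genes for the knockout and 34.9% for the wild type, and both at once in 10.9%, against 8 of 10 members. These places were taken from the members' own values, and in knockout replicate 2 Fosb, Junb and Egr1 held only 0, 1 and 3 fragments. The members are read in the same libraries, so these counts are not independent of each other and carry no test. Over the 6 libraries Jun, Jund and Nr4a1 followed each other, with Pearson's r of log2(FPKM + 1) between 0.825 and 0.978 for their 3 pairs. Nr4a3 followed them less closely, at 0.537 to 0.829, and Fos least, at 0.0593 with Nr4a3 and 0.402 to 0.521 with the other 3.

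**Figure D2:**
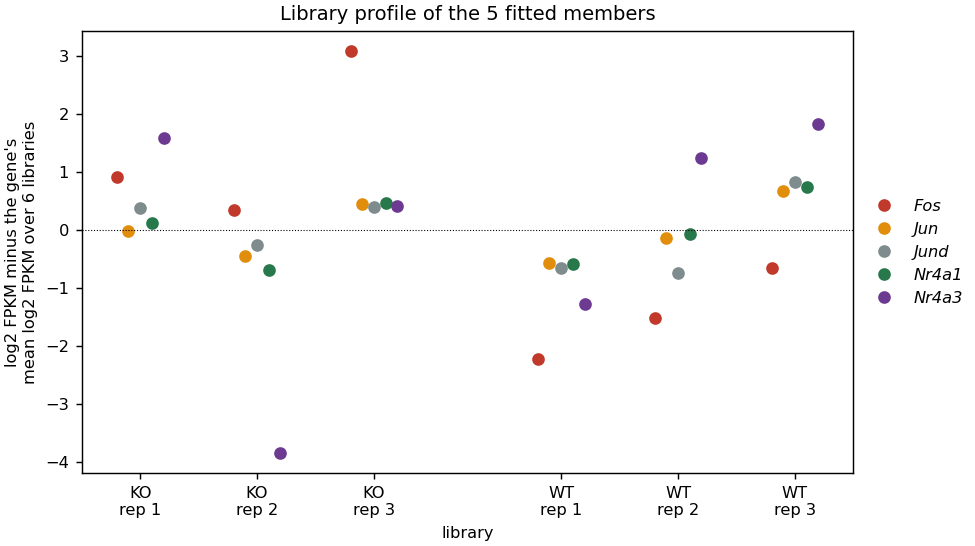
Log2 FPKM of the 5 fitted members in each library, minus the mean log2 FPKM of that gene over the 6 libraries; knockout libraries stand left of wild-type libraries. Within each genotype the members are low in the same library, knockout replicate 2 and wild-type replicate 1 for most of them, while Fos alone is above its own mean in all 3 knockout libraries and below it in all 3 wild-type libraries.

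Their spread within a genotype was wide compared with other genes. The within-genotype SD of log2(FPKM + 1) was 1.55 for Nr4a3, 1.03 for Fos, 0.609 for Nr4a1, 0.512 for Jun and 0.463 for Jund, against a median of 0.175 over the genes fitted. Each member was set beside the 460 or 461 genes in its own bin of ranked mean FPKM. Between 93.9% (Jund) and 99.8% (Nr4a3) of the bin had a smaller SD. A gene with such a spread needs a larger difference to be called with 3 libraries per genotype, so a missed threshold does not show equal levels.

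**Figure D3:**
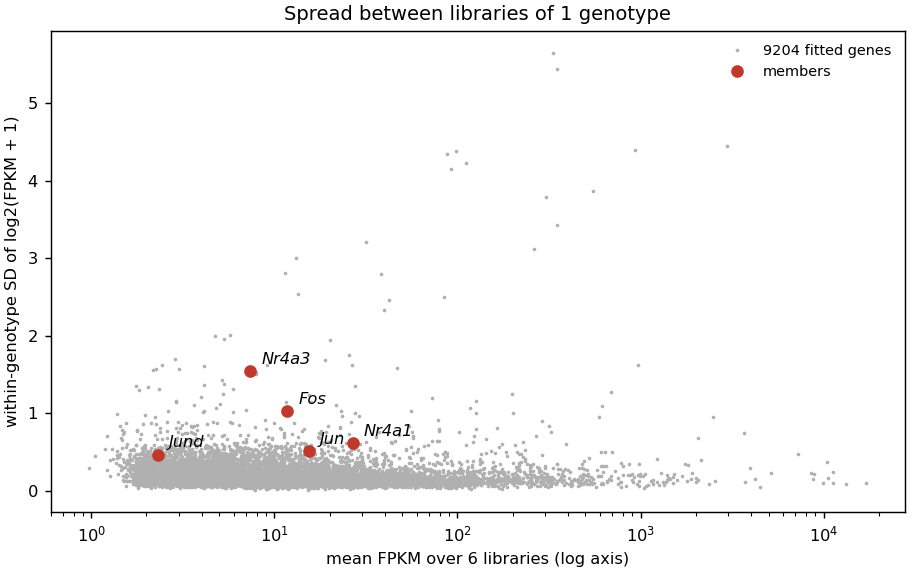
Within-genotype SD of log2(FPKM + 1) against mean FPKM over the 6 libraries (log axis), with each grey point a fitted gene and the 5 fitted members in red. All 5 lie above the bulk of genes of like level, from 0.463 for Jund to 1.55 for Nr4a3.

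Levels were also compared within each library, as ratios of FPKM, which is per length; this comparison was chosen after the values were seen. Fos stood at 0.378, 0.449 and 1.33 times the level of Nr4a1 in the knockout libraries, against 0.0702, 0.0803 and 0.0823 times in the wild-type libraries. The wild-type ratios thus lay within 1.17-fold of each other, although Fos itself varied 2.94-fold among those libraries, and the lowest knockout ratio was 4.59 times the highest wild-type ratio. Relative to Jun, Fos stood at 0.708, 0.642 and 2.30 in the knockout, against 0.118, 0.144 and 0.147 in the wild type. The ratio of Nr4a1 to Jun, by contrast, overlapped between genotypes, at 1.87, 1.43 and 1.73 in the knockout, against 1.69, 1.79 and 1.79 in the wild type. Within the knockout, Fos varied 3.52-fold relative to Nr4a1 and 3.58-fold relative to Jun. Fos relative to Jund varied 4.44-fold within the knockout and 1.73-fold within the wild type. Nr4a3 relative to Nr4a1 stood at 0.4502, 0.0183 and 0.157 in the knockout, against 0.1003, 0.406 and 0.347 in the wild type, with overlap and a spread of 24.6-fold and 4.05-fold within these genotypes. The exact two-sided permutation p over 6 libraries was 0.10 for Fos relative to Nr4a1, Jun or Jund, the smallest this design allows. Any values without overlap give this p, so it adds nothing to the lack of overlap already seen. Fos alone gave the same p, so these ratios are not separate tests. For Nr4a1 relative to Jun the permutation p was 0.80. Knockout replicate 3 stood apart in the ratios as it did in the level of Fos.

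**Figure D4:**
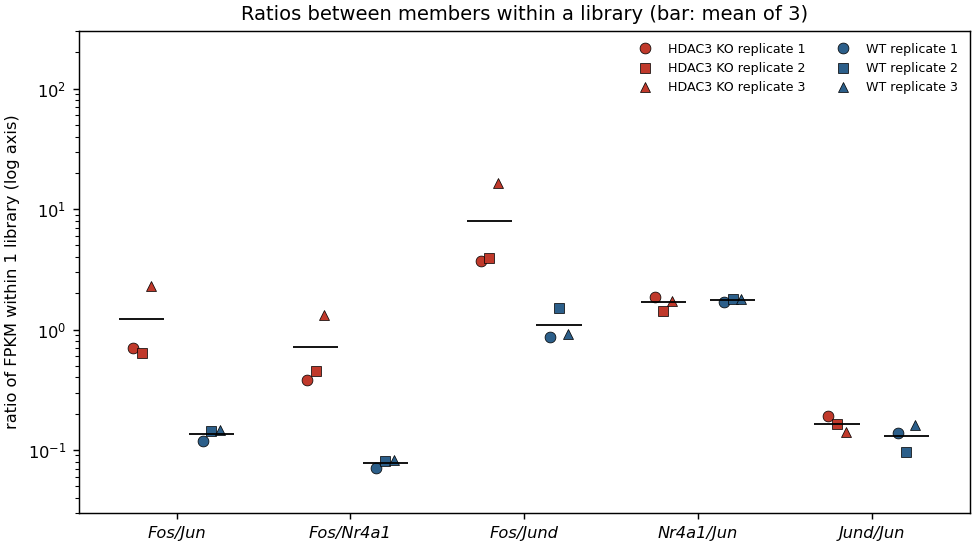
Ratio of the FPKM of a pair of members within each library (log axis), knockout left of wild type, with a bar at the mean of 3. Fos relative to Jun, Nr4a1 or Jund is higher in every knockout library than in any wild-type library, while Nr4a1 relative to Jun lies between 1.43 and 1.87 in all 6.

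Marker genes of other cell types were summed beside these values. Of the 10 marker lists, the sums of 1 did not overlap between genotypes, while 28.0% of all single genes fitted did not overlap. This was the satellite cell list (Pax7, Myf5, Calcr and Cdh15). Its 4 markers summed to 1.80 to 2.75 FPKM in the knockout, against 3.96 to 5.93 FPKM in the wild type. Most of each sum was Cdh15, at 1.65, 2.18 and 1.34 FPKM in the knockout, against 2.24, 3.49 and 4.62 FPKM in the wild type. Pax7, Myf5 and Calcr were low and had no test in the deposited table, and Calcr overlapped between genotypes. The 4 smooth muscle markers (Myh11, Acta2, Tagln and Cnn1) summed to 38.5, 29.4 and 40.8 FPKM in the knockout, against 28.7, 30.7 and 29.5 FPKM in the wild type, so that knockout replicate 3 was highest here as for Fos. The same library was the lowest of the 6 in fibroblast markers, which summed to 423, 432 and 284 FPKM in the knockout, against 595, 406 and 472 FPKM in the wild type. It was also the lowest in adipocyte markers, which summed to 30.4, 10.9 and 7.503 FPKM in the knockout, against 15.9, 30.8 and 21.6 FPKM in the wild type. The 8 neutrophil markers summed to 3.74 to 8.23 FPKM in the knockout and to 6.08, 544.5 and 10.7 FPKM in the wild type. The part of these cells in the results was not tested, and in whole muscle fewer cells of a type cannot be told apart from less RNA per cell.

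Among the fitted genes outside the family, those whose library pattern was most like the mean pattern of the 5 fitted members were Stk40 and Nkiras2 (Pearson's r of 0.992 and 0.990 over the 6 libraries). Vps18, Irf3, Glmp, Scamp4, Csrp2bp, Prelid1, Cox19 and Tubb5 followed, down to r = 0.967. Stk40, which encodes a serine/threonine kinase-like protein, stood at 20.6, 14.7 and 23.6 FPKM in the knockout, against 12.7, 17.1 and 25.7 FPKM in the wild type. The genotypes overlapped, and as in most members wild-type replicate 3 was highest and wild-type replicate 1 lowest. These 10 were picked for their likeness among 9204 genes measured in the same libraries, so r is a description only.

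Other genes of the response were taken from 5 lists of 94 genes, of which 71 were in the fit. Limma called 2 of them, among them Nfil3, higher in the knockout, against 4.72% of all genes fitted, and 20 had an unadjusted p under 0.05, against 21.5%. By its q-value, the authors' deposited table called 13 higher and 5 lower, that is 18.3% and 7.04% of the 71, against 5.90% and 4.94% of all genes fitted. The median log2 fold change of the 71 by limma was 0.06, against 0.01 over all genes fitted. In 11 of the 13 genes called higher, knockout replicate 3 was the highest of the 6 libraries, as it was for Fos; the exceptions were Cebpb and Zfp36, highest in knockout replicate 2. Over all 543 genes that the q-value called higher, knockout replicate 3 was the highest of the 6 in 30.9%.

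Of 22 other inducible transcription factor genes 16 were fitted. Limma called 1 higher (3.04% over all genes fitted), and 2 had an unadjusted p under 0.05 (21.5%). The authors' deposited q-value called 4 higher (5.90%) and 0 lower (4.94%). Nfil3, a bZIP repressor that also serves the circadian clock, stood at 26.1, 22.3 and 33.7 FPKM in the knockout, against 13.4, 16.3 and 12.9 FPKM in the wild type (limma adjusted p = 0.0297, log2 fold change 0.89 ± 0.17). Its call ended without any 1 library other than knockout replicate 2, with adjusted p between 0.0721 and 0.0859, and also with a replicate block (0.0856) or no filter on low genes (0.170); it held in 7 of 14 alternative settings. Atf3, a bZIP factor of the stress response, stood at 39.4, 2.17 and 44.8 FPKM in the knockout, against 3.34, 15.3 and 8.83 FPKM in the wild type. Like Nr4a3, it was lowest of all in knockout replicate 2, and limma did not call it (adjusted p = 0.608). Csrnp1, a nuclear factor induced by growth signals, was at 1.17, 1.21 and 3.70 FPKM in the knockout, against 0.653, 0.714 and 1.16 FPKM in the wild type, with a ratio of means of 2.403 that was 1.41 without knockout replicate 3. The fourth gene called by q-value, Cebpb, had a ratio of means of 1.53 (limma adjusted p = 0.420).

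Of 27 inducible genes that encode other proteins 19 were fitted. Limma called 0 (4.72% over all genes fitted), and 9 had an unadjusted p under 0.05 (21.5%). The authors' deposited q-value called 6 higher (5.90%) and 1 lower (4.94%). Cyr61 and Ctgf encode secreted matricellular proteins of the CCN family. Cyr61 stood at 25.7, 33.2 and 48.5 FPKM in the knockout, against 6.92, 21.5 and 12.4 FPKM in the wild type, without overlap (limma log2 fold change 1.42 ± 0.38, adjusted p = 0.0848). Btg2, an antiproliferative gene, stood at 8.97, 9.18 and 17.5 FPKM in the knockout, against 5.54, 6.06 and 5.04 FPKM in the wild type (limma adjusted p = 0.0769). Ier3, an early response gene tied to cell survival, stood at 7.96, 12.6 and 13.5 FPKM in the knockout, against 6.71, 2.84 and 4.97 FPKM in the wild type (limma adjusted p = 0.0749). Among the fitted genes of this list, every knockout library was above every wild-type library in Cyr61, Btg2, Ier3, Ier5 and Ccl2. Over all genes fitted this held for 15.6%. In Homer1 every knockout library was below every wild-type library, which held for 12.4% of all genes fitted. Limma called none of these genes. Ctgf, Ier5 and Rhob had ratios of means of 1.74, 1.84 and 1.74, and Cited2, called lower, 0.608. Ccl2, a chemokine that draws monocytes, was at 3.66, 0.645 and 1.99 FPKM in the knockout, against 0.268, 0.323 and 0.263 FPKM in the wild type. It had the highest ratio of means among the named genes of this list, 7.37, and 4.63 without knockout replicate 1, but was called by neither rule (limma adjusted p = 0.120, deposited q-value 0.471).

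Of 15 feedback genes, which shut the response down, 10 were fitted. Limma called 0 (4.72% over all genes fitted), and 3 had an unadjusted p under 0.05 (21.5%). The authors' deposited q-value called 3 higher (5.90%) and 1 lower (4.94%). Dusp1, a phosphatase that inactivates MAP kinases, stood at 28.8, 60.7 and 86.2 FPKM in the knockout, against 32.4, 20.9 and 33.0 FPKM in the wild type. Knockout replicate 1 lay within the wild-type range and the other 2 knockout libraries above it (ratio of means 2.03, limma adjusted p = 0.225). Zfp36, which encodes tristetraprolin and speeds the decay of mRNAs with AU-rich elements, stood at 1.86, 8.12 and 5.32 FPKM in the knockout, against 2.25, 2.09 and 1.71 FPKM in the wild type; limma's adjusted p was 0.249, and 0.0491 without knockout replicate 1. Nfkbia, the inhibitor of NF-kappaB, had a ratio of means of 1.65, and Zfp36l2, a relative of Zfp36, 0.609.

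Of 22 upstream genes 20 were fitted. Limma called 0 (4.72% over all genes fitted), and 5 had an unadjusted p under 0.05 (21.5%). The authors' deposited q-value called 0 higher (5.90%) and 2 lower (4.94%). These 2 were Srf, which binds the CArG box of immediate early promoters, and Mkl1, its actin-regulated coactivator. Srf stood at 5.52, 6.25 and 7.35 FPKM in the knockout, against 6.96, 10.2 and 12.9 FPKM in the wild type (limma adjusted p = 0.185). Mkl1 stood at 0.860, 1.34 and 1.08 FPKM in the knockout, against 1.66, 2.41 and 3.42 FPKM in the wild type, without overlap (limma adjusted p = 0.114).

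**Figure D5:**
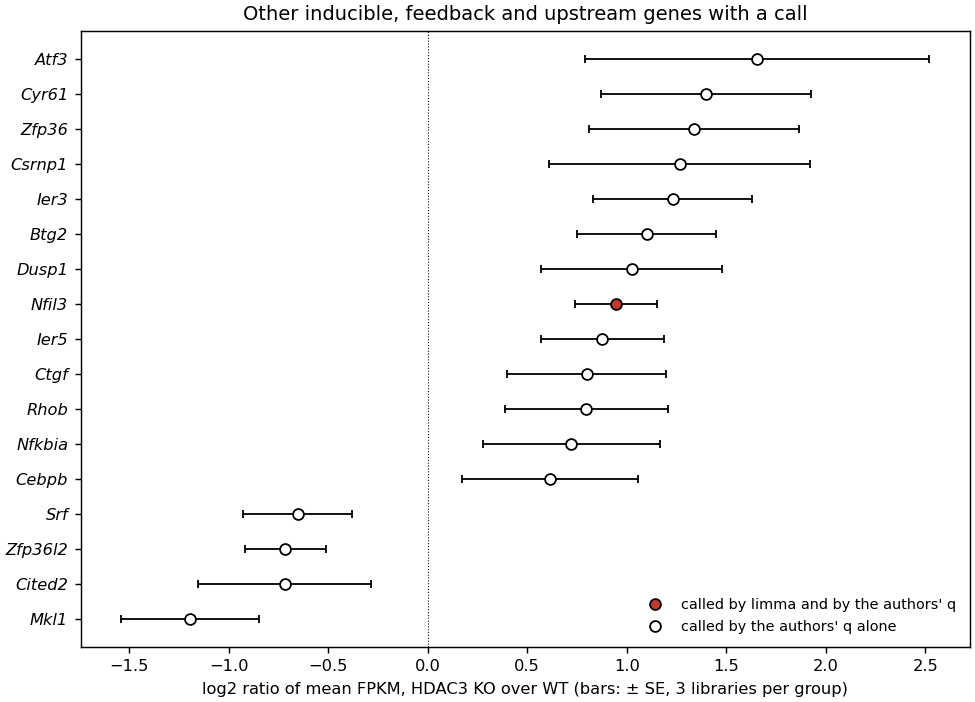
Log2 ratio of mean FPKM, knockout over wild type, with its SE from 3 libraries per genotype, for the 17 genes with a call in 4 of the lists (inducible factors, other inducible genes, feedback and upstream); the filled point was called by limma as well as by the authors' deposited q-value. Nfil3 (ratio of means 1.93) is filled, and the other 16 were called by the q-value alone.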

How the data were processed

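RNA-seq of mouse quadriceps was deposited as 1 table of FPKM per gene and library for 3 HDAC3 knockout and 3 wild-type libraries at ZT10. Per the submitters' processing notes the authors used TopHat2, Cuffdiff and the mm9 build; no source used here gives the versions, annotation, strand setting or scaling between libraries. Each gene's p-value and q-value were copied from the deposited table as they stand. The HDAC3 peak lists are on mm9, for which no annotation was given, and were not used here; the nascent-transcript libraries were not analysed here. FPKM were not counts, so limma 3.58.1 (R 4.3.3) with a mean-variance trend was fitted to log2(FPKM + 1) of 9204 genes with a deposited p-value under 1, two-sided, with Benjamini-Hochberg adjustment; the log scale understates changes of low genes. The step was tested on simulated data with 200 changed genes. Folds are ratios of mean FPKM, knockout over wild type, with a delta-method SE. Named were all members, list genes called by either rule, the 6 list genes with the largest limma change and the 10 genes of most similar pattern; further genes were named after their values were seen, and 1 gene that the rule covers is not reported here. Members and lists were chosen with earlier results of these data known. Alternatives were other pseudocounts, filters, scalings and thresholds, no trend, a replicate block and each library left out.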

Additional observations from a re-analysis of the deposited data

How the results depend on the processing

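Across the alternatives, limma called 0 of the members in every fit at an adjusted p of 0.05, and 1, Fos, at 0.1; the authors' deposited q-value called 1 at 0.05 and 2, Fos and Nr4a3, at 0.1. Over all genes limma called 434, against 839 at an adjusted p of 0.1, 98 with no filter and between 20 and 292 without 1 library. Of the 5 further lists it called 2, against 6 at an adjusted p of 0.1, 0 with no filter and between 0 and 3 without 1 library. Replicate numbers are shared between genotypes, but same-numbered libraries deviated together with correlations of only -0.00285, 0.0473 and 0.0487, and not every library correlated best with its own number; with a replicate block limma called 52 genes, 1 of the further lists and 0 members. The sign of Jun turned with quantile normalization (-0.026) and in some fits without 1 library (between -0.25 and 0.33), as did those of Nr4a1 (between -0.36 and 0.28) and Nr4a3 (between -1.43 and 0.28); the cause was not tested. Under quantile normalization 211 of 377 calls were higher, 56.0% against 64.5%. Depth limits the 5 low members, which held between 0 and 25 fragments where these could be read.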

Other observations

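Of the 94 further genes of the response, 23 were not in the fit, and 16 of these were under 1 FPKM in every library. Fosl1 and Egr4, of the FOS and EGR families, are listed at 0 FPKM in all 6 libraries. Nr4a2, the remaining NR4A gene, was at 0.342, 0 and 0 FPKM in the knockout, against 0.0565, 0.408 and 0.166 FPKM in the wild type.

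The genes whose library pattern was most like that of Fos alone were picked after its values were seen. They were led by Klf6, a zinc finger factor of early responses (Pearson's r of 0.991 over 6 libraries), and included Ier5 (0.976). Klf6 stood at 13.4, 12.97 and 16.1 FPKM in the knockout, against 11.5, 12.1 and 12.3 FPKM in the wild type. Its ratio of means was only 1.19 (limma adjusted p = 0.308). The genotypes did not overlap in Klf6, but genes picked for likeness to Fos tend to share this with Fos.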
